A study of Mus musculus with 16 samples.

Results

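Cells make cholesterol from acetyl-CoA through the mevalonate route, squalene and lanosterol, and the enzymes of this chain are controlled together by the transcription factors SREBP1 and SREBP2. Both factors are held in the endoplasmic reticulum by SCAP and the INSIG proteins when sterols are plentiful, and are cut and released to the nucleus when sterols run low. SREBP1 is known mainly for genes of fatty acid synthesis and desaturation, and astrocytes are known as a main source of cholesterol in the brain. The 33 genes described here were chosen by symbol, with earlier results of these data known. Counts of them set beside shares of all genes are therefore descriptive. They comprise 7 enzymes of the mevalonate route, 3 enzymes that make squalene and lanosterol, 8 enzymes between lanosterol and cholesterol, 6 genes of SREBP control and sterol handling, and 9 genes of acetyl-CoA supply and fatty acid synthesis. All 33 were found among the 16707 genes of the deposited log2 CPM table, and all 33 passed the count filter that left 16066 genes for testing.

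The cells were primary mouse astrocytes from P6 pups, taken by magnetic beads against the astrocyte surface antigen ACSA2 and grown without serum in medium with heparin-binding EGF. WT cultures came from 4 C57BL6J litters and KO cultures from 4 Nlrx1-/- litters, which lack the mitochondrial innate immune receptor NLRX1 in every cell of the animal. From each litter, 1 culture received vehicle (water) and another was stimulated for 24 h with 500 ng/mL LPS, a constituent of bacterial outer membranes, and 10 ng/mL of the cytokine IFNγ. The 16 libraries thus fall into 4 conditions with n = 4 litters each. Responses were taken within litters, and the genotypes were compared between litters, so that litter and genotype differences rest on 4 cultures a side.

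Salmon assigned between 27259420 and 43752903 read pairs to a library. Nlrx1 lay between 4.08 and 4.44 log2 CPM in the 8 WT libraries and between 1.09 and 2.96 in the 8 KO libraries, which did not overlap. The difference was -1.70 ± 0.24 (SE) on the log2 scale in vehicle (edgeR quasi-likelihood test, adjusted p = 0.0538) and -2.19 ± 0.25 in LPS+IFNγ (adjusted p = 0.00318). All 8 astrocyte markers examined were in the table, with summed levels from 2393 to 5586 TPM per library. Of 8 microglial markers, 7 were absent from the table, and their sum was at most 2.04 TPM in any library. Markers of the oligodendrocyte lineage were present in every library and moved with the conditions. Their sum lay between 318.0 and 576.4 TPM in WT vehicle, 120.3 and 285.7 TPM in stimulated WT, 76.94 and 440.6 TPM in KO vehicle, and 32.03 and 148.2 TPM in stimulated KO. In bulk RNA, fewer cells of a type and less RNA per cell cannot be told apart.

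The levels of the 33 genes in unstimulated WT astrocytes differed widely when set side by side per transcript length. Scd2, a desaturase that makes monounsaturated fatty acids, was the highest at 2682 ± 219 TPM (SD, n = 4). Fads2 and Fads1, the desaturases of polyunsaturated fatty acids, followed at 992.1 ± 55.1 TPM and 487.7 ± 30.5 TPM, and Hmgcs1, which makes HMG-CoA, stood at 480.2 ± 87.5 TPM. The levels of Fads1 and Hmgcs1 overlapped between litters. Among the regulators, Srebf1 (SREBP1) was at 279.6 ± 27.6 TPM and Srebf2 (SREBP2) at 149.4 ± 8.9 TPM, with no overlap between litters. The lowest were Lss, the lanosterol synthase, at 18.96 ± 2.37 TPM, and the post-lanosterol enzymes Ebp at 16.2 ± 1.2 TPM and Hsd17b7 at 14.4 ± 2.8 TPM. Even the least counted gene, Ebp, had at least 331 reads in each library. Scd1 and Scd2 are close relatives, and Salmon divides reads that match both. How many reads this concerned was not examined, so their separate values may be less certain.

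To set sequence beside the values, promoter windows from RefSeq (250 bases before to 50 after a transcript start) were searched on both strands for the letters TCACNCCAC of a sterol regulatory element, for the NF-Y box CCAAT and for the E-box CACGTG. Windows were matched for 26 of the 33 genes, and 34 windows in all. Fdps, Fdft1, Sqle, Stard4, Scd1, Scd2 and Fads1 had none. These letters were found in 1 of the 34 windows, that of Hmgcs1, against 1.24% of all 32851 windows. This window lies at chr13:120151637-120151936 on the plus strand (GRCm39, placed by exact match of a GRCm38.p6 sequence), around the start of Hmgcs1 (chr13:120151915-120170470). The match lies 137 to 129 bases before the RefSeq transcript start on which the window is built, a position that differs from the GENCODE gene start just given, and does not overlap any of the 4 CCAAT matches of the window. The window is printed as the only one with these letters among the 26 genes with a window, with the matching letters in capitals.
Hmgcs1: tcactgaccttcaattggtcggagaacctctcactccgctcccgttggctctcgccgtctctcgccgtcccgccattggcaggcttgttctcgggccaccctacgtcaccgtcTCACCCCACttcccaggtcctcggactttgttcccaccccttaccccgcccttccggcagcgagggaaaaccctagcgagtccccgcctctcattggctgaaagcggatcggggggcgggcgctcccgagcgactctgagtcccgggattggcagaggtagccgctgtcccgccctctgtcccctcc

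The CCAAT box was found in 22 of the 34 windows, belonging to 21 of the 26 genes, and in 37.4% of all windows. The E-box was found in 6 windows of 5 genes (Hsd17b7, Sc5d, Dhcr7, Insig1 and Scap), and in 7.15% of all windows. These are matches of letters in short windows.

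In WT astrocytes, LPS+IFNγ raised 32 of the 33 genes (edgeR quasi-likelihood test, adjusted p below 0.05), where 23.7% of all genes tested rose and 20.2% fell. The median change of the 33 was 1.24 on the log2 scale (2.37-fold), against -0.020 over all genes. In the deposited log2 CPM, every stimulated WT library lay above every vehicle WT library for the same 32 genes, a separation that 20.2% of all genes showed. Each of the 18 enzymes from Acat2 to Dhcr7 rose, by 0.81 to 1.88. The exception was Insig2. The plot of all 33 genes across the libraries shows the 4 conditions side by side.

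**Figure D1:**
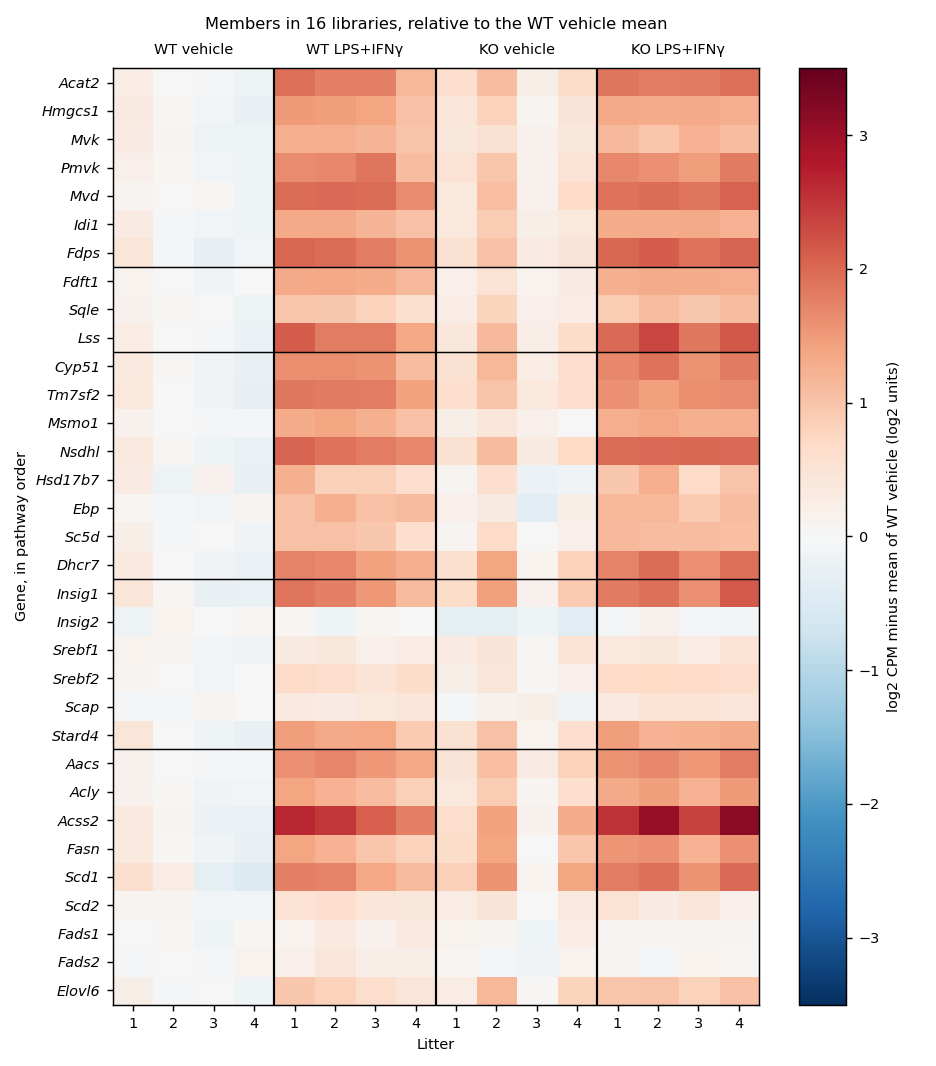
Log2 CPM of each of the 33 genes (rows, in pathway order, with lines between the 5 groups of genes) in each of the 16 libraries (columns, by condition and litter), as the difference from the mean of the 4 WT vehicle libraries. Both stimulated blocks are higher than their vehicle blocks for most rows, and within KO vehicle the columns of litters 2 and 3 differ most.

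The 7 mevalonate enzymes had the highest median WT response of the 5 groups, 1.57. Mvd (chr8:123160336-123170324, minus strand), which removes carbon dioxide to give isopentenyl pyrophosphate, changed most among them. In litters 1 to 4 its level was 5.09, 4.98, 5.05 and 4.84 log2 CPM in vehicle and 6.95, 6.96, 6.96 and 6.63 after stimulation. All 4 litters rose by similar amounts, and litter 4 was the lowest in both treatments. The fitted change was 1.88 ± 0.11 (SE, 3.67-fold, adjusted p = 4.94e-07, edgeR). Fdps, which makes farnesyl pyrophosphate, rose by 1.82 ± 0.11, and Acat2, which joins acetyl-CoA units at the head of the route, by 1.65 ± 0.12. Pmvk and Mvk, the kinases of the route, rose by 1.57 ± 0.13 and 1.17 ± 0.10. Hmgcs1, whose promoter window is shown above, rose from 9.78, 9.49, 9.37 and 9.20 log2 CPM to 10.95, 10.92, 10.84 and 10.47, again without overlap. Its change of 1.33 ± 0.10 (adjusted p = 2.27e-06, edgeR) was near that of Idi1, the isomerase, at 1.21 ± 0.10.

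Squalene and lanosterol synthesis rose as well. Lss, which closes the sterol ring, had vehicle levels of 6.16, 5.91, 5.84 and 5.71 log2 CPM and stimulated levels of 8.03, 7.70, 7.69 and 7.26. The litters kept their order between the treatments. Its change was 1.84 ± 0.09 (adjusted p = 7.94e-08, edgeR). Fdft1, the squalene synthase, rose by 1.28 ± 0.08, and Sqle, the squalene epoxidase, by 0.81 ± 0.08, the smallest change among the 18 enzymes.

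All 8 enzymes between lanosterol and cholesterol rose. Nsdhl, which helps remove the methyl groups of lanosterol, had the largest change of this group at 1.84 ± 0.11. It was followed by the sterol reductase Tm7sf2 at 1.71 ± 0.13, by Dhcr7, which catalyses a late reduction, at 1.54 ± 0.11, and by the lanosterol demethylase Cyp51 at 1.46 ± 0.10. Msmo1, a methyl sterol oxidase, rose by 1.24 ± 0.06 and the isomerase Ebp by 1.10 ± 0.10. Sc5d, a desaturase, and Hsd17b7, a keto-reductase, rose least, by 0.88 ± 0.10 and 0.87 ± 0.08.

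The genes of SREBP control had the smallest median WT response, 0.47. Insig1 (chr5:28276315-28283668, plus strand), which retains SCAP in the endoplasmic reticulum and is itself an SREBP target, rose from 7.53, 7.16, 6.83 and 6.87 log2 CPM to 8.98, 8.86, 8.62 and 8.21. The 2 treatments did not overlap, and the change was 1.56 ± 0.13 (2.95-fold, adjusted p = 6.37e-06, edgeR). Its paralog Insig2 (chr1:121181760-121260400, minus strand) had vehicle levels of 4.44, 4.73, 4.58 and 4.68 and stimulated levels of 4.67, 4.46, 4.68 and 4.59. These overlapped, with 2 litters higher and 2 lower, and the change was -0.023 ± 0.093 (adjusted p = 0.866, edgeR). Stard4, a sterol carrier, rose by 1.25 ± 0.13.

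Both transcription factors rose, with a larger estimate for Srebf2 (chr15:82031382-82093201, plus strand) than for Srebf1 (chr11:60089913-60113407, minus strand). Srebf2 went from 8.56, 8.45, 8.37 and 8.46 log2 CPM to 9.12, 9.08, 8.93 and 9.09, a change of 0.59 ± 0.06 (adjusted p = 2.12e-05, edgeR). Srebf1 went from 9.32, 9.30, 9.09 and 9.06 to 9.51, 9.58, 9.37 and 9.46. All 4 litters were higher, by 0.27 ± 0.06 (1.21-fold, adjusted p = 0.00302, edgeR). Scap, the escort of both factors, rose by 0.35 ± 0.05. The difference between the 2 factors was not tested. With total counts in place of TMM scaling, the Srebf1 change was 0.11 with an adjusted p of 0.155.

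Genes of acetyl-CoA supply and fatty acid synthesis all rose in WT, with a median of 1.09. Acss2 (chr2:155355679-155428016, plus strand), which makes acetyl-CoA from acetate, had the largest response of the 33 genes. Its levels were 5.74, 5.49, 5.21 and 5.16 log2 CPM in vehicle and 8.03, 7.87, 7.50 and 7.15 after stimulation. Every litter rose by 1.99 to 2.38, and the fitted change was 2.23 ± 0.09 (4.69-fold, adjusted p = 2.35e-08, edgeR). Aacs, which activates acetoacetate, rose by 1.54 ± 0.09, and Acly, which makes acetyl-CoA from citrate, by 1.13 ± 0.08. Fasn, the fatty acid synthase, rose by 1.09 ± 0.13 (2.13-fold) and Elovl6, an elongase of saturated chains, by 0.69 ± 0.13.

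The desaturases had estimates from 0.22 to 1.48. Scd1 (chr19:44382894-44399154, minus strand) rose by 1.48 ± 0.15 (2.79-fold, adjusted p = 1.98e-05, edgeR), from 9.75, 9.45, 8.87 and 8.71 log2 CPM to 10.96, 10.92, 10.56 and 10.31. The much more abundant Scd2 (chr19:44281613-44295303, plus strand) rose by 0.46 ± 0.09 (1.38-fold). Fads2 and Fads1 had the smallest called changes, 0.25 ± 0.06 (adjusted p = 0.00869, edgeR) and 0.22 ± 0.06 (adjusted p = 0.0169). With total counts in place of TMM scaling they were 0.092 (adjusted p = 0.275) and 0.06 (adjusted p = 0.489), and without WT litter 2 their adjusted p was 0.0538 and 0.0644. Fads1 also lost its call without WT litter 3 (adjusted p = 0.0708).

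In KO astrocytes, 29 of the 33 genes rose, where 25.3% of all genes did, and the median change was 0.86 (1.82-fold) against -0.030 over all genes. Of the 33, 28 were called higher in both genotypes. Changes above 1 on the log2 scale were measured for 22 genes in WT and for 11 in KO. The shares of all genes for these counts were not taken. The upper quartile of the change over all genes was 0.273 in WT and 0.286 in KO. Every stimulated KO library lay above every vehicle KO library for 27 of the 33 genes, as for 17.6% of all genes. All 18 enzymes from Acat2 to Dhcr7 rose, by 0.62 to 1.49.

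As in WT, Acss2 changed most, from 6.01, 6.81, 5.55 and 6.71 log2 CPM to 7.92, 8.45, 7.77 and 8.54 in KO litters 1 to 4, which is 1.88 ± 0.09 (3.69-fold, adjusted p = 7.86e-08, edgeR). It was followed by Lss at 1.49 ± 0.09, Fdps at 1.43 ± 0.10, Mvd at 1.38 ± 0.11 (2.60-fold) and Nsdhl at 1.296 ± 0.110. Insig1 rose by 1.08 ± 0.13 (2.11-fold), Scd1 by 0.83 ± 0.15 (1.78-fold), Fasn by 0.74 ± 0.13 (1.67-fold) and Srebf2 by 0.43 ± 0.06.

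The genes without a call in KO were Srebf1 at 0.040 ± 0.057 (adjusted p = 0.598), Scd2 at 0.066 ± 0.092 (adjusted p = 0.581), Fads2 at 0.028 ± 0.064 (adjusted p = 0.746) and Fads1 at 0.00 ± 0.065 (adjusted p = 0.999, all edgeR). Their KO litters were split in direction, with Scd2 higher in litters 1 and 3 and lower in litters 2 and 4. Insig2 was called in KO at 0.28 ± 0.09 (adjusted p = 0.0289, edgeR), with levels of 4.30, 4.27, 4.44 and 4.20 log2 CPM in vehicle and 4.56, 4.76, 4.55 and 4.52 after stimulation. It lost its call without KO litter 1, 2 or 4 (adjusted p = 0.0594, 0.116 and 0.0714) and with total counts (adjusted p = 0.319). Elovl6 at 0.37 ± 0.13 (adjusted p = 0.0353, edgeR) lost its call without KO litter 1 or 3 or WT litter 3 (adjusted p = 0.16, 0.157 and 0.0514) and with total counts (adjusted p = 0.223).

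**Figure D2:**
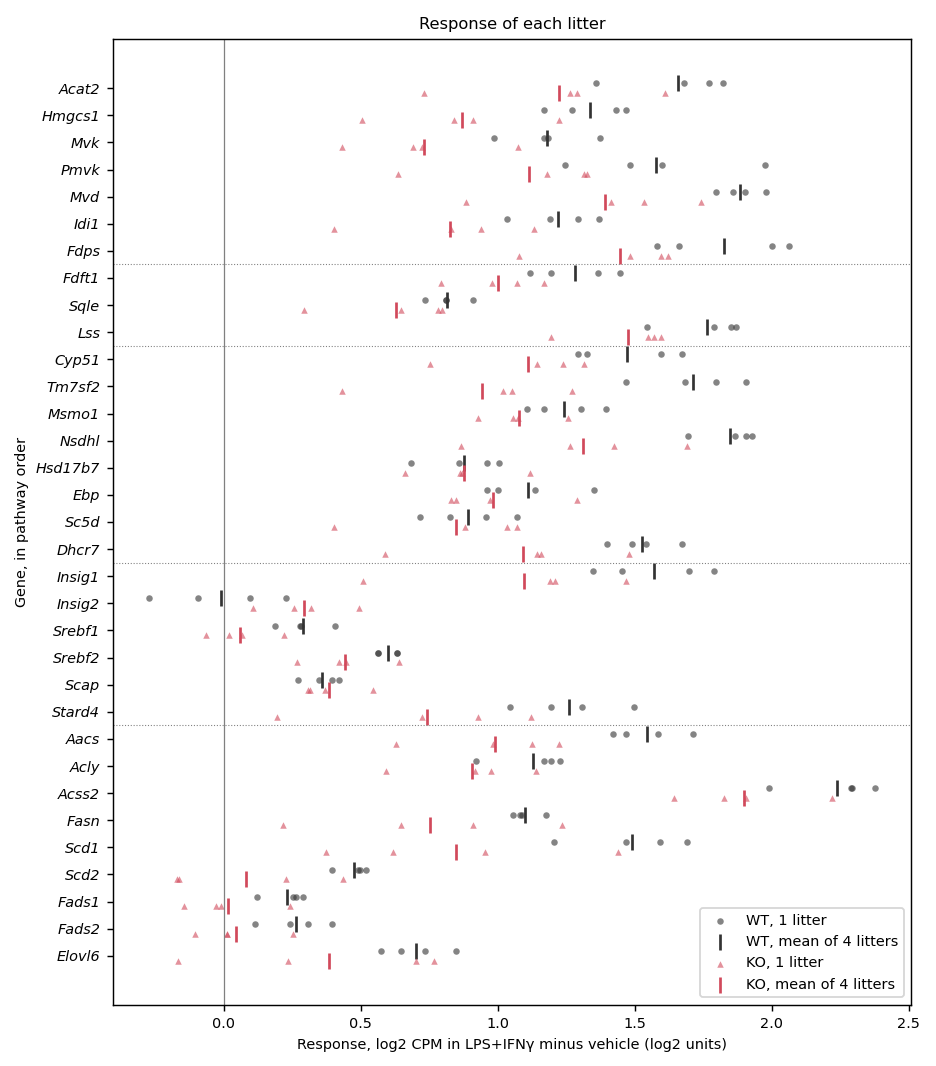
Response of each litter (log2 CPM in LPS+IFNγ minus vehicle, horizontal axis) for the 33 genes in pathway order. Grey circles are WT litters, red triangles are KO litters, and vertical ticks are the means of 4 litters. For Mvd, Tm7sf2, Nsdhl and Aacs all KO litters lie below all WT litters, and for the other 29 genes at least 1 KO litter does not.

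The 2 genotypes were next compared in the size of their response, as the KO response minus the WT response in the same fit. The estimate was negative for 31 of the 33 genes, with a median of -0.36 against -0.017 over all 16066 genes, 53% of which were negative. None of the 33 passed the adjusted threshold with edgeR, and neither did any other gene (0% called), so the lower KO values did not pass the test across genes. The unadjusted p was below 0.05 for 22 genes with a smaller response in KO and for 1, Insig2, with a larger response, where 9.47% and 5.89% of all genes were so. DESeq2 called 5 of the 33 lower (1.15% of all genes), which were Aacs, Hmgcs1, Nsdhl, Scd1 and Tm7sf2, and limma on the deposited log2 CPM called 0. The 7 mevalonate enzymes all had an unadjusted p below 0.05, as did 2 of 3 squalene and lanosterol enzymes, 4 of 8 post-lanosterol enzymes, 6 of 9 genes of acetyl-CoA and fatty acids, and, beside Insig2, 3 of 6 genes of SREBP control. None of the marker genes was called either, with an unadjusted p below 0.05 for a lower KO response in 6 of 6 proliferation markers (median difference -0.52), 5 of 8 oligodendrocyte-lineage markers (-0.58) and 5 of 8 astrocyte markers (-0.21). The summed proliferation markers lay between 673.6 and 1266 TPM in WT vehicle, 782 and 1120 in stimulated WT, 930.8 and 1264 in KO vehicle, and 599.2 and 1065 in stimulated KO. Their part in the difference was not tested.

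The largest estimate was that of Tm7sf2 (chr19:6112851-6118403, minus strand). It responded by 1.47, 1.80, 1.91 and 1.68 in WT litters and by 1.02, 0.43, 1.27 and 1.05 in KO litters. The groups did not overlap, and the difference was -0.78 ± 0.17 (adjusted p = 0.217, edgeR). Aacs responded by 1.47, 1.71, 1.59 and 1.42 in WT and by 1.12, 0.63, 1.22 and 0.98 in KO, again without overlap, with a difference of -0.56 ± 0.13 (adjusted p = 0.217). Nsdhl and Mvd were the other genes without overlap, at -0.54 ± 0.15 and -0.50 ± 0.16 (adjusted p = 0.223 for each). Such separation below WT was seen for 4 of the 33 genes and for 5.25% of all genes. Scd1 had an estimate of -0.65 ± 0.20, with overlap.

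Hsd17b7, Sc5d and Scap had estimates near 0, at -0.002 ± 0.111, -0.048 ± 0.142 and 0.022 ± 0.071. Insig2 stood apart with a positive estimate of 0.30 ± 0.13 (adjusted p = 0.312, edgeR).

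The KO litters were unequal. The median response over the 33 genes was 1.17, 1.37, 1.37 and 1.18 in WT litters and 0.97, 0.50, 1.17 and 0.88 in KO litters. The median of all genes lay within 0.008 of 0 in every litter, where the TMM scaling of the deposited values tends to place it. KO litter 2 responded less than every WT litter for 31 of the 33 genes (30.6% of all genes), litter 1 for 25 (24.3%) and litter 4 for 24 (32%). KO litter 3 did so for 5 (24.2% of all genes). Without KO litter 3, edgeR called 7 of the 33 lower in KO (1.18% of all genes), and the median difference was -0.46. Without KO litter 2 the median was -0.26, with 0 called and 16 at an unadjusted p below 0.05.

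Before stimulation, the pathway stood higher in KO than in WT by estimate. In vehicle, 31 of the 33 genes had a positive KO minus WT estimate, with a median of 0.49 against 0.001 over all genes. None was called with edgeR, nor was any other gene (0% called), and the lowest adjusted p among the 33 was 0.111. The unadjusted p was below 0.05 for 25 genes higher in KO, where 11% of all genes were, and for 1 lower, Insig2, where 8.57% were. DESeq2 called 20 of the 33 higher (2.83% of all genes) and Insig2 lower (1.74%), and limma called 0. The groups of litters did not overlap for 4 genes, Mvd, Fdft1, Sqle and Aacs, as for 6.02% of all genes.

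Scd1 had the largest vehicle estimate. Its KO levels of 10.02, 10.76, 9.32 and 10.57 log2 CPM compared with 9.75, 9.45, 8.87 and 8.71 in WT. KO litter 3 lay inside the WT range and the other KO litters above it, and the estimate was 1.00 ± 0.28 (adjusted p = 0.119, edgeR). Acss2 at 0.93 ± 0.27, Insig1 at 0.82 ± 0.24, Fasn at 0.81 ± 0.22 and Dhcr7 at 0.77 ± 0.21 followed, with adjusted p from 0.117 to 0.124. The smallest unadjusted p was that of Aacs, at 0.67 ± 0.13 (adjusted p = 0.111). Its vehicle levels were 6.12, 5.97, 5.92 and 5.91 in WT and 6.43, 7.04, 6.27 and 6.78 in KO. Srebf1 had an estimate of 0.32 ± 0.09 and Srebf2 of 0.21 ± 0.08 (adjusted p = 0.124 and 0.17). Insig2 was the other way, at -0.32 ± 0.09 (adjusted p = 0.12, edgeR), while Fads2 stood at -0.002 ± 0.077.

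**Figure D3:**
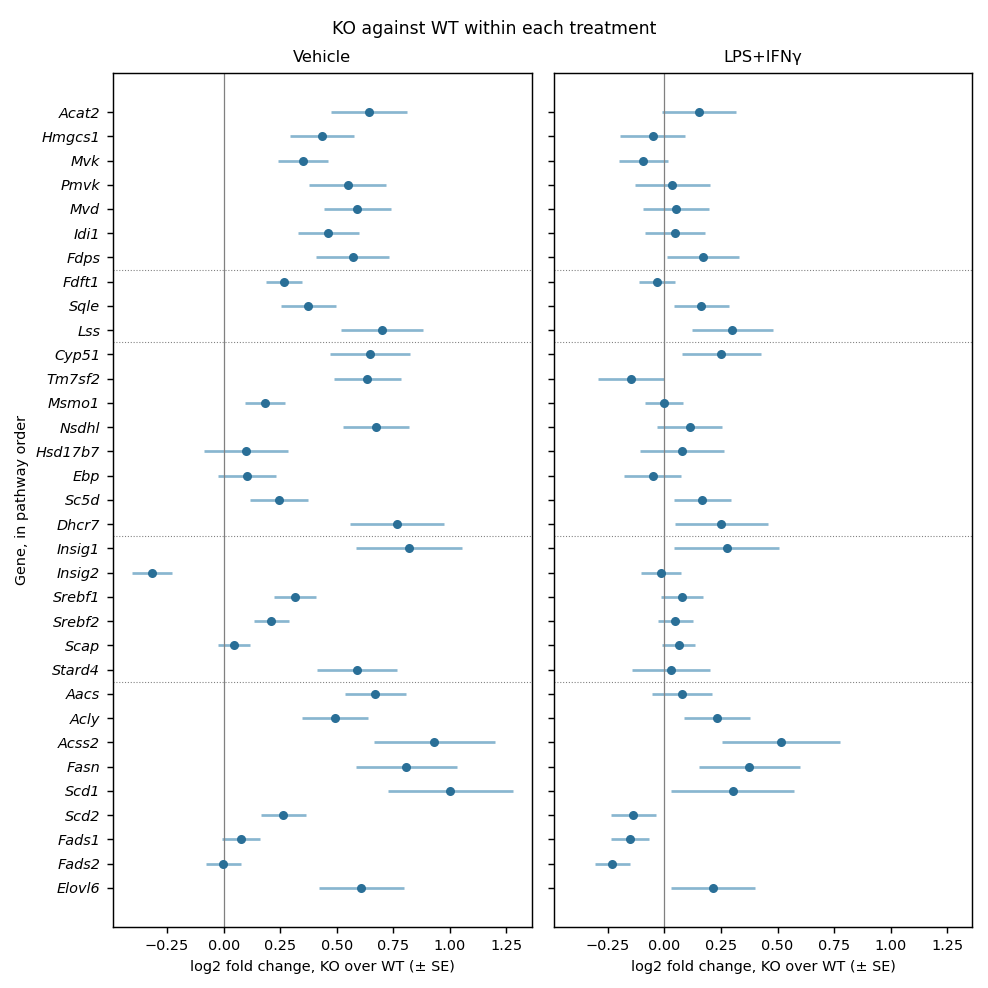
Fitted log2 fold change of KO over WT (points) with its standard error (bars) for the 33 genes in pathway order, in vehicle on the left and in LPS+IFNγ on the right. In vehicle 31 of the 33 points lie above 0, and in LPS+IFNγ 23 do, with most points closer to 0.

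The median level over the 33 genes had an SD of 0.29 between KO vehicle litters and 0.11 between WT vehicle litters. For 28 of the 33 genes KO litter 2 was the highest of the KO vehicle libraries (30.7% of all genes), and for 30 of the 33 KO litter 3 was the lowest (24.6%). KO vehicle litter 2 lay above every WT vehicle litter for 31 of the 33 genes (33.9% of all genes), litters 1 and 4 for 28 each (23.9% and 30.1%), and litter 3 for 6 (24.4%). In WT vehicle, litter 1 was the highest for 28 of the 33 genes (30.1%). In litters 1 to 4 the median levels were 6.63, 6.44, 6.43 and 6.38 log2 CPM in WT vehicle and 6.63, 7.22, 6.58 and 6.81 in KO vehicle. After stimulation they were 8.03, 7.80, 7.69 and 7.59 in WT and 7.87, 8.08, 7.77 and 8.0 in KO. Without KO litter 3, edgeR called 25 of the 33 genes higher in KO vehicle (3.62% of all genes) and Insig2 lower (4.42%), and without WT litter 1 it called 4 higher (0.717%), which were Aacs, Fdps, Nsdhl and Tm7sf2.

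The KO vehicle litters with the highest pathway levels had the lowest sums of oligodendrocyte-lineage markers. These sums were 251.9, 76.94, 440.6 and 108.3 TPM in KO litters 1 to 4, against 337.8, 318.0, 576.4 and 507.2 TPM in WT. Of the 8 markers of this list, 7 fell with stimulation in each genotype (20.2% of all genes fell in WT and 24.2% in KO). In vehicle edgeR called 0 between the genotypes, as it did 0% of all genes, and their median KO minus WT estimate was -1.11. After stimulation the median was -1.80, with 1 called lower (2.38% of all genes) and 6 lower at an unadjusted p below 0.05 (14.9%). The 8 astrocyte markers had medians of -0.36 in vehicle and -0.67 after stimulation, where 1 was called lower. The astrocyte marker sum was 3478, 2514, 4180 and 2814 TPM in KO vehicle and 3535, 4359, 4275 and 5586 TPM in WT vehicle. The part of either in the pathway values was not tested.

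**Figure D4:**
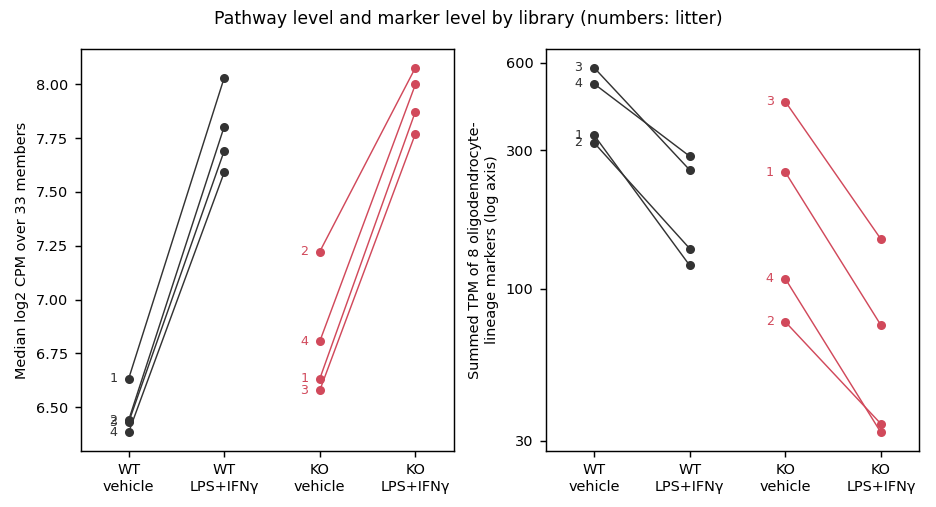
Median log2 CPM over the 33 genes (left) and summed TPM of 8 oligodendrocyte-lineage markers on a log axis (right) in each library, with lines joining the vehicle and stimulated libraries of a litter and the litter number beside the vehicle point. In KO vehicle, litters 2 and 4 are the highest on the left and the lowest on the right.

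After stimulation, the KO minus WT estimate had a median of 0.077 over the 33 genes, against -0.014 over all genes, with 23 positive and 10 negative. None of the 33 was called with edgeR, where 2.65% of all genes were called higher and 2.38% lower in KO. The unadjusted p was below 0.05 for 1 gene, Fads2, where 13.5% of all genes were higher and 14.9% lower. Fads2 was lower in KO, at 10.47, 10.32, 10.52 and 10.41 log2 CPM against 10.55, 10.80, 10.62 and 10.62 in WT. These did not overlap, and the estimate was -0.23 ± 0.08 (adjusted p = 0.0758, edgeR). DESeq2 called Fads2 lower (7.53% of all genes), as did edgeR without KO litter 3 (11.3%), and limma called 0 of the 33. Fads1 was also lower in every KO litter (at most 9.726 log2 CPM) than in every WT litter (at least 9.738). Sc5d was higher in every KO litter (at least 7.501, against at most 7.457 in WT). So separated were 2 of the 33 genes lower and 1 higher, shares no larger than the 6.23% and 7.09% of all genes. Acss2 had the largest positive estimate, 0.52 ± 0.26 (adjusted p = 0.208, edgeR). The 18 mevalonate and sterol enzymes lay between -0.15 for Tm7sf2 and 0.30 for Lss, with standard errors up to 0.205. The comparisons of the genotypes in vehicle, after stimulation and in response share libraries, and their values are set side by side only.

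Genes around the pathway moved in both directions. Their counts stand against the 23.7% of all genes that rose and 20.2% that fell in WT, and the 25.3% and 24.2% in KO. Of 10 genes of SREBP processing and turnover, 4 rose and 0 fell, with a median of 0.15. The largest called changes were those of the ubiquitin ligases Rnf139 (0.58 ± 0.05) and Rnf145 (0.37 ± 0.07) and of Erlin1 (0.34 ± 0.06), and the other was Pgrmc1 (0.27 ± 0.06). In KO 6 of the 10 rose, with Rnf139 at 0.61 ± 0.05. Of 10 genes of LXR signalling and sterol efflux or storage, 5 rose and 1 fell in WT, led by Mylip, the ligase that degrades lipoprotein receptors (0.97 ± 0.32), the receptor Nr1h2 (0.77 ± 0.05) and the phospholipid enzyme Lpcat3 (0.47 ± 0.05). The WT litters of Mylip responded by 1.24, -0.39, 0.88 and 1.25 in log2 CPM. Npc2 and Soat1 also rose in WT, and the cholesterol exporter Abca1 fell by 0.32 ± 0.09. In KO Nr1h2, Lpcat3, Lipa and Npc2 rose, and the exporter Abcg4 fell by 0.66 ± 0.11. Mylip was higher in all KO litters without a call, at 0.77 ± 0.31 (adjusted p = 0.0599, edgeR).

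Of 10 genes of sterol uptake and transport, 3 rose and 1 fell in each genotype. The lipoprotein receptor Scarb1 rose by 0.96 ± 0.12 in WT and 0.42 ± 0.12 in KO, and the sterol-binding protein Tmem97 by 0.93 ± 0.11 and 0.46 ± 0.11. The third was Lrp1 in WT (0.24 ± 0.07) and Vldlr in KO (1.72 ± 0.34), whose KO litters responded by 1.15, 2.14, 0.54 and 2.74. Gramd1c, of a family of sterol transporters, fell by 0.68 ± 0.16 in WT and by 0.78 ± 0.17 in KO. Of 14 other genes of fatty acid synthesis, 9 rose and 2 fell in each genotype. The citrate carrier Slc25a1 rose by 1.02 ± 0.08 in WT and 0.89 ± 0.08 in KO, and Thrsp, a lipogenic factor, by 0.81 ± 0.11 and 0.40 ± 0.11. Gpam, which starts glycerolipid synthesis, fell by 1.22 ± 0.09 in WT and by 1.10 ± 0.09 in KO, and the elongase Elovl2 fell by 0.64 ± 0.11 and 0.83 ± 0.11. No gene of these lists was called for a difference between the responses with edgeR (0% of all genes).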

How the data were processed

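Per the labels and the methods, poly-A RNA of 16 astrocyte libraries was sequenced without strand information, so overlapping and antisense genes cannot be separated. The authors quantified RefSeq transcripts of GRCm39 with Salmon 1.7.0 and deposited an expected count and a TPM per transcript. The authors also deposited log2 CPM per gene, made with tximport, a count filter, TMM scaling and limma 3.58.1. A separate table of CPM on the linear scale was not used here.

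A gene's expected count was taken as the sum over the 106440 of 129698 transcripts whose accession could be paired with its symbol, rounded to whole reads. Such transcripts held 96.7% to 97.3% of the reads. After each library's median offset over well-counted genes was removed, log2 counts of the members lay within 0.18 log2 units of the deposited values. Lss lay furthest. Groups and litters came from the labels, with 0 libraries left unmapped. Tests were run with edgeR 4.0.16 in R 4.3.3 (quasi-likelihood with TMM scaling and offsets for transcript length) on the 16066 genes kept by filterByExpr with its minimum count of 10. P-values were adjusted by Benjamini-Hochberg over these genes, and calls had an adjusted p below 0.05. Responses and their difference used litters as blocks within genotype, as the study's formula does. KO and WT were compared with the 4 conditions as the only terms. In these comparisons both treatments shared an estimate of the spread, and libraries of the same litter entered it as if independent. Libraries of the same litter correlated in their deviations from the condition means (r across genes 0.073 to 0.355, median 0.218, 8 pairs), against a median of -0.052 between litters.

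All members are named, and up to 3 genes of each of 7 other lists, those with the largest called WT response. Other genes that make up small counts were named after their values were seen. The members and lists were chosen with earlier results of these data known. On simulated counts with 200 of 16066 genes changed by 1 log2 unit, 66.5% (WT response), 65% (KO response), 57.5% (difference), 58% (KO against WT in vehicle) and 57% (in LPS+IFNγ) of them were called. Between 3.62% (WT response) and 7.2% (KO against WT in vehicle) of the calls were of unchanged genes. The simulated libraries held no litter effects, and smaller changes were not simulated. Alternatives used DESeq2 1.42.0, limma, other scalings, filters, thresholds and blocks, and left out each litter. Positions are from GENCODE M39 (GRCm39). Sums, promoter searches and plots used matplotlib 3.10.9, pandas 2.3.3 and numpy 2.4.6 in Python 3.11.15.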

Additional observations from a re-analysis of the deposited data

Results flagged for a closer look

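In each of the 33 genes, the 4 litters of each condition and of each response were examined for a value far from the other 3. Of 198 such groups 10 stood out, and chance alone gives about 1 in 20. Stimulated WT litter 4 was low for Mvd (6.63 log2 CPM, others 6.95 to 6.96), Cyp51 (8.49, others 8.98 to 9.05), Tm7sf2 (5.58, others 5.97 to 6.02) and Sc5d (7.02, others 7.39 to 7.46). KO litter 2 was high for Sqle in vehicle (8.15 log2 CPM, others 7.54 to 7.64) and, after stimulation, for Msmo1 (8.15, others 8.05 to 8.06) and Insig2 (4.76, others 4.52 to 4.56), and its Lss response was low (1.195 log2 units, others 1.55 to 1.60). Stimulated KO litter 1 was high for Sc5d (7.56 log2 CPM, others 7.50 to 7.51), and stimulated KO litter 3 was low for Fasn (10.97, others 11.29 to 11.35).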

How the results depend on the processing

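The WT and KO responses held under the alternatives, with 520 of 528 and 517 of 528 gene values on the same side of the threshold and none reversed among called values. These values include tests without litters of the other genotype. Such tests keep all data of the response and can change it only through the shared spread, scaling and filter. With total counts in place of TMM, an alternative added after seeing the data, the median of all genes moved from -0.020 to -0.18 (WT) and from -0.030 to -0.19 (KO). The calls moved from 3813 higher and 3240 lower to 2433 and 5384 in WT, and from 4057 and 3886 to 2657 and 5887 in KO. The median WT response of the 33 genes was then 1.08, with 29 called, and the KO median 0.70, with 27 called. For the difference between the responses, the count called lower was 0 in the main test, 5 with DESeq2 and 0 to 7 without single litters. For KO against WT in vehicle, DESeq2 called 20 higher and 1 lower, and tests without single litters called 0 to 25 higher and 0 to 1 lower. After stimulation, DESeq2 called 1 lower, and tests without single litters 0 to 1. Over all genes, 426 were called higher and 382 lower in that comparison, against 0 with only the stimulated libraries, 0 and 1 without WT litter 2 or 4, 0 and 2 without WT litter 3, 7 and 6 without KO litter 2, 2 and 2 without KO litter 4, 148 and 72 without KO litter 1, 1499 and 1834 without KO litter 3, and 1229 and 1209 with DESeq2. The cause of these changes was not tested. The signs of values called in neither setting differed from the main test in 2, 16, 13, 10 and 24 instances over the 5 comparisons.

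Without the replicate block, 31 genes were called in the WT response (median 1.24) and 28 in the KO response (0.84), without Fads1 and Elovl6, and 0 in the difference, where 11 rather than 22 had an unadjusted p below 0.05 and a lower KO response. Litter numbers did not pair the genotypes (median r -0.006 for the same number). A replicate block by that number gave vehicle and LPS+IFNγ medians of 0.48 and 0.078 with 0 called. Each of the 33 genes had at least 331 reads in every library, and the comparisons of the genotypes rest on 4 litters a side.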

Other observations

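Further lists branch off the pathway, and their counts stand against the 23.7% of all genes that rose and 20.2% that fell in WT, and the 25.3% and 24.2% in KO. Of 9 genes of the isoprenoid branches, 3 rose and 1 fell in WT, and 3 rose and 2 fell in KO. Those that rose were the same in both genotypes. They were the ubiquinone enzymes Coq2 (1.09 ± 0.08 in WT and 0.74 ± 0.07 in KO) and Pdss1 (0.97 ± 0.15 and 1.01 ± 0.14) and the dolichol enzyme Nus1 (0.50 ± 0.07 and 0.58 ± 0.07). Fnta, a farnesyltransferase subunit, fell in both, by 0.15 ± 0.05 and 0.20 ± 0.05, and Dhdds fell in KO by 0.23 ± 0.05.

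Of 6 oxysterol enzymes, 3 rose and 2 fell in WT, and 2 rose and 3 fell in KO. Ch25h, which makes 25-hydroxycholesterol, had 0 reads in all WT vehicle libraries, 4 to 17 reads in stimulated WT, 0 to 5 in KO vehicle and 19 to 43 in stimulated KO. It was called higher in both genotypes (edgeR, adjusted p = 0.0263 in WT and 0.0104 in KO). Only in stimulated KO did all libraries reach the filter's minimum count of 10, so the gene was tested because it was high there. Its KO call is therefore no separate support for a rise, and its WT call rests on few reads. Cyp46a1, which makes 24-hydroxycholesterol, fell by 0.81 ± 0.18 in WT and by 1.57 ± 0.18 in KO, and Cyp39a1 fell by 0.79 ± 0.13 and 1.29 ± 0.14. Cyp7b1 rose in both (0.75 ± 0.08 and 0.64 ± 0.08), Hsd3b7 rose in WT (0.45 ± 0.08), and Cyp27a1 was called lower only in KO, by 1.45 ± 0.45. In log2 CPM, Cyp27a1 fell in every litter of both genotypes, with mean responses of -0.90 in WT and -0.88 in KO. Its KO litters ranged from -2.24 to -0.067. Of 9 genes of fatty acid oxidation, 3 rose and 2 fell in WT, and 2 rose and 4 fell in KO. In WT Ppargc1a (0.51 ± 0.09), Ppara (0.48 ± 0.09) and Acadvl (0.41 ± 0.06) rose, while Cpt1a and Acadm each fell by 0.30 ± 0.05.

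Among stimulated cultures, 7 of the 68 genes of the 7 lists were called between the genotypes (edgeR), 1 higher and 6 lower in KO, where 2.65% of all genes were higher and 2.38% lower. None of the 7 was called without WT litter 2, 3 or 4, without KO litter 2 or 4, or with only the 8 stimulated libraries, settings in which at most 13 genes of all were called, and 1 of the 7 was called without KO litter 1. Mlxipl and Acacb, of fatty acid synthesis, were lower in KO (-1.17 ± 0.29 and -1.17 ± 0.24), as were Cyp46a1 (-0.87 ± 0.22), Hsd3b7 (-0.62 ± 0.17), Abcg4 (-0.54 ± 0.14) and Soat1 (-0.50 ± 0.14). Vldlr, a lipoprotein receptor, had an estimate of 1.60 ± 0.42, with 5.26, 6.78, 4.66 and 6.82 log2 CPM in stimulated KO litters 1 to 4 and 4.47 to 4.74 in stimulated WT. KO litter 3 lay inside the WT range.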
